A study of Homo sapiens with 12 samples.

Results

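The transcripts of 5 RAS family GTPases, HRAS, NRAS, RRAS, RRAS2 and MRAS, were followed through 12 poly(A) RNA-seq libraries of the human bladder carcinoma line T24. The genes were taken by symbol, and each of the 5 symbols matched 1 of the 60603 genes in the count table. All 5 passed the low-count filter that left 17775 genes for testing. T24 is the line from which an activated HRAS oncogene was isolated. The libraries form 4 groups of 3: WT cells without treatment, WT cells with 5-Ad-IAA, NS1 cells without treatment and NS1 cells with 5-Ad-IAA. 5-Ad-IAA is an auxin derivative that induces the AlissAID system, in which a binding protein recruits an untagged endogenous protein to an auxin-dependent ubiquitin ligase. A synthetic binding protein called NS1 is known to recognise HRAS but not NRAS, and whether this is the construct behind the genotype label NS1 is not stated in the labels. The labels also do not state the dose, the duration, what WT cells carry of the degradation system, or whether the NS1 line is 1 clone. They do not state that the 3 libraries of a group came from separate cultures, so p-values measure the spread between these libraries, which may be technical.

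RAS proteins are small GTPases that switch between a GTP-bound state, in which they engage effectors at the plasma membrane, and a GDP-bound state. HRAS and NRAS signal mainly through RAF kinases and PI3-kinase. RRAS regulates integrin-based adhesion, RRAS2 (TC21) feeds strongly into PI3-kinase, and MRAS forms a complex with SHOC2 and a PP1 phosphatase that activates RAF. The comparison asks whether transcripts of these paralogues differ when the degrader is present and when it is induced. The data are of RNA and carry no measure of RAS protein.

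The libraries held 10593934 to 20266996 counts, and replicate 1 was the deepest library of every group (15627546 to 20266996 counts). Epithelial keratins were abundant, with KRT7 at 1530 to 6020 and KRT18 at 572 to 1340 normalised CPM (read counts relative to the scaled library size). GATA3 was present at 22.2 to 105 CPM. The basal markers KRT5 and TP63 had no count in any library. Of the uroplakins, which mark terminal urothelium, UPK3A had no count, UPK1A and UPK1B had at most 5 and 2 counts, and UPK2 was present at 0.864 to 2.3 CPM. The epithelial cadherin CDH1 and the keratin KRT20 had at most 2 counts, and EPCAM had 0.617 to 4.5 CPM. Mesenchymal markers were present, with FN1 at 2010 to 8860 CPM, CDH2 at 80 to 191, VIM at 23.5 to 87.7 and ZEB1 at 16.7 to 30.4. The leukocyte markers PTPRC and CD3E had at most 1 count in any library, and CD14 had 0.432 to 2.71 CPM. The endothelial markers PECAM1, CDH5 and VWF reached 2.82, 1.17 and 1.08 CPM, and the erythroid markers HBB and HBA1 had at most 1 and 2 counts.

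The paralogues are similar in protein sequence, so reads could in principle be assigned to the wrong gene, and the overlap of their transcripts was counted (GENCODE release 29). The sequencing kit allowed reads of up to 75 bases. No exact window of 75 bases in any transcript of HRAS, NRAS, RRAS or MRAS occurred in a transcript of another gene. For RRAS2, 206 of 3581 windows (5.75%) occurred in another gene, 192 of them in the processed pseudogene RRAS2P1. The reads listed under RRAS2P1 were 14.5% to 16.2% of the reads of both genes in each library, and RRAS2 and RRAS2P1 values are therefore uncertain, since reads of the shared stretches could be split between them. No exon of the 5 genes overlapped an exon of another gene in GENCODE release 29.

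HRAS was the most abundant of the 5 per length of exon in every library, and MRAS the least. In untreated WT cells HRAS stood at 115 ± 27.9 CPM per kb (SD, n = 3), RRAS2 at 46.4 ± 9.3, RRAS at 36.5 ± 10.1, NRAS at 17.5 ± 1.88 and MRAS at 0.148 ± 0.0392. RRAS2 and RRAS overlapped in range there (35.7 to 52.6 and 29.3 to 48.1), and the other neighbours in the order did not. In untreated NS1 cells RRAS and NRAS were close, with 22.6 ± 5.73 and 23.2 ± 3.85 CPM per kb, and their order reversed when the length of the longest coding transcript was used (25.1 ± 6.37 and 23.2 ± 3.85). Treated WT cells had the order of untreated WT cells, with RRAS2 and RRAS again overlapping. In treated NS1 cells RRAS (24.5 to 41 CPM per kb) overlapped NRAS (20.2 to 26.9) and lay below RRAS2 (42.7 to 46).

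MRAS showed a larger difference than the other 4 genes in every comparison except that of the inducer in WT cells. It was higher in NS1 cells and highest in treated NS1 cells. MRAS (ENSG00000158186.13) lies on the plus strand of chromosome 3, from 138347648 to 138405535 (RefSeq on GRCh38.p14, as for the positions below). Untreated WT libraries held 25, 13 and 7 MRAS reads in replicates 1 to 3, which are 1.17, 0.976 and 0.677 CPM. Treated WT libraries had 0.95, 1.48 and 0.72 CPM from 8 to 20 reads. Untreated NS1 libraries had 4.69, 2.04 and 3.27 CPM from 28 to 76 reads, and every one lay above every WT library. Treated NS1 libraries had 10.4, 6.11 and 6.89 CPM from 70 to 200 reads, above every other library. These are bulk samples, in which more cells with a transcript and more transcript per cell cannot be told apart.

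With 5-Ad-IAA in NS1 cells MRAS rose 2.34-fold (log2 1.23 with an SE of 0.31, adjusted p 0.0334). This and the following adjusted p-values are from edgeR's quasi-likelihood test with Benjamini-Hochberg adjustment over all genes tested, and a gene was called when it was under 0.05. It was higher in 3 of 3 libraries of matching replicate number. Of the 5 genes only MRAS was called in this comparison, where 6.15% of all genes tested were called. It lost its call in 4 of the 6 fits that left out 1 NS1 library: treated replicate 1 (adjusted p 0.0968), treated replicate 3 (0.0749), untreated replicate 2 (0.12) and untreated replicate 3 (0.106), with log2 fold changes from 0.95 to 1.59 over the 6 fits. It was also lost with only the 2 NS1 groups in the fit (adjusted p 0.0659). When replicate 2 or replicate 3 was left out of all groups, 0 of 18070 and 0 of 18186 genes were called. The loss in those 2 fits is thus not particular to MRAS. The call was kept with the replicate number as a block (adjusted p 0.00796 by edgeR, where 13.6% of all genes were called).

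MRAS was 3.42-fold higher in untreated NS1 than in untreated WT cells (log2 1.77, SE 0.37, adjusted p 0.00823) and 7.41-fold higher with treatment in both lines (log2 2.89, SE 0.35, adjusted p 9.35e-05), by edgeR. These calls held in all 12 fits that left out 1 library of the groups compared, 6 for each comparison. The first was lost when replicate 3 was left out of all groups (adjusted p 0.15), and the second was kept. In WT cells the MRAS difference with 5-Ad-IAA was 0.11 log2 (95% interval -0.79 to 1.00, adjusted p 1). The interaction of genotype and inducer, which asks whether the inducer effect differs between lines, was 1.12 log2 for MRAS (SE 0.52, adjusted p 0.405). With a block for each replicate number within each line its adjusted p was 0.0394, and 14% of all genes were then called. MRAS passed the count filter in 10 of 12 libraries, 4 of them WT libraries, and it was not tested when 10 counts were required in every library.

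**Figure D1:**
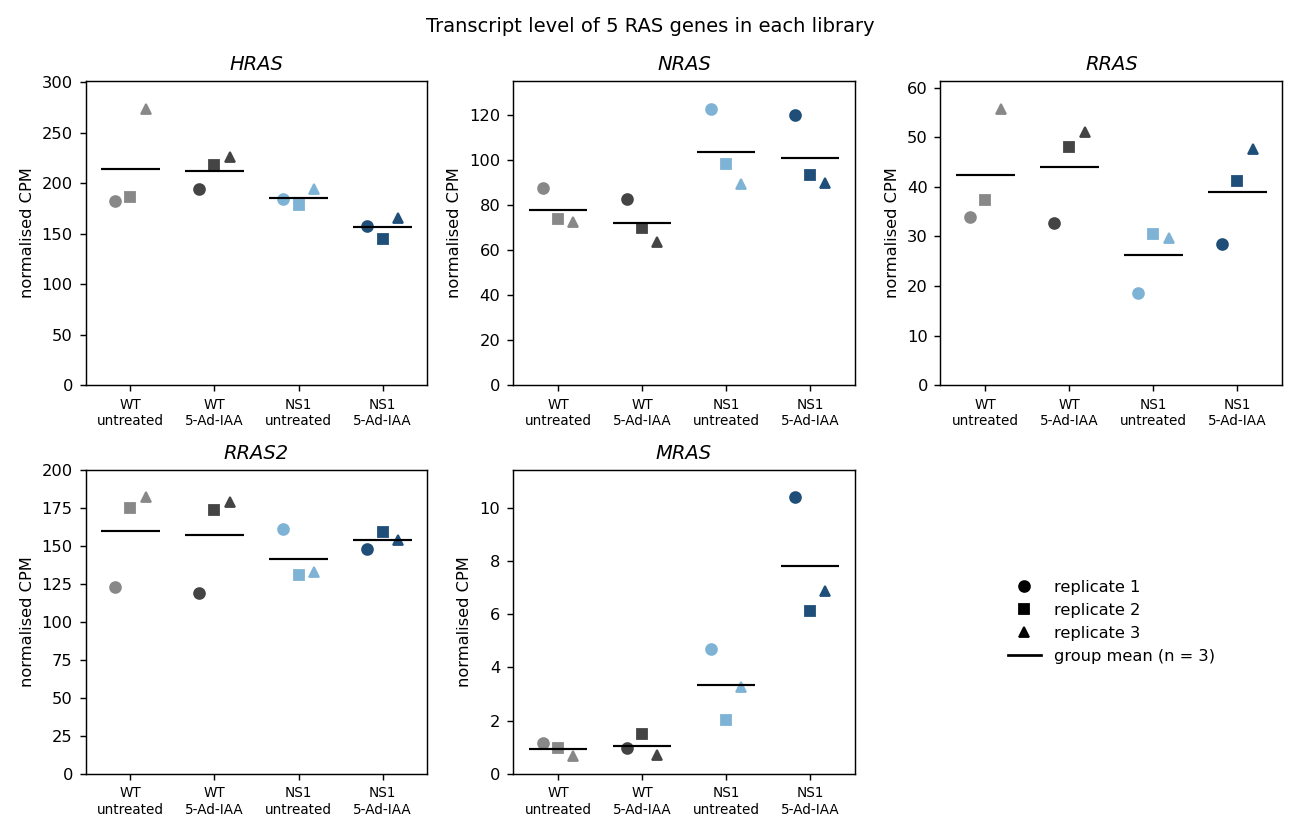
Normalised CPM (y axis, linear, from 0) of each gene in the 12 libraries, by group on the x axis, with a symbol for each replicate number and a line at the group mean. MRAS lies between 6.11 and 10.4 CPM in treated NS1 cells and at no more than 1.48 CPM in WT cells, whereas RRAS2 overlaps between all groups.

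RRAS was lowest in untreated NS1 cells and higher in treated NS1 cells, near the WT range. RRAS (ENSG00000126458.4) lies on the minus strand of chromosome 19, from 49635292 to 49640143. Replicates 1 to 3 had 34, 37.4 and 55.8 CPM in untreated WT cells and 32.8, 48.1 and 51.1 in treated WT cells. They had 18.6, 30.5 and 29.6 CPM in untreated NS1 cells, each below all 6 WT libraries. In treated NS1 cells they had 28.4, 41.1 and 47.6 CPM, which overlapped the other 3 groups.

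Treated NS1 cells had a higher RRAS level than untreated ones in 3 of 3 matching replicate numbers, a 1.49-fold difference (log2 0.57, SE 0.25, adjusted p 0.217 by edgeR). This was not called in the fit without a block. It was called when no low-count filter was used (adjusted p 0.00422, SE 0.15), where 1801 of 34084 genes were called. The replicate numbers pair the libraries of a line, and RRAS was called with the replicate number as a block (adjusted p 0.0085, where 13.6% of all genes were called) and with a block within each line (0.000629, where 25.9% were called). Between untreated lines RRAS was 1.61-fold lower in NS1 cells (log2 -0.69, SE 0.25, adjusted p 0.0951), which was not called. It was called by DESeq2 (0.0493, where 2454 of 17775 genes were called). It was also called by edgeR without a low-count filter (0.000121, SE 0.15, where 2978 of 34084 were called). With treatment the difference was -0.17 (95% interval -0.71 to 0.37, adjusted p 0.647). The WT inducer effect was 0.06 log2 (95% interval -0.48 to 0.59). The interaction for RRAS was 0.52 (SE 0.36, adjusted p 0.644), with an adjusted p of 0.0209 under the block within each line, where 14% of all genes were called.

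HRAS was lower in treated NS1 cells than in any other group. HRAS (ENSG00000174775.17) lies on the minus strand of chromosome 11, from 532242 to 535576. Replicates 1 to 3 had 182, 186 and 274 CPM in untreated WT cells, and 194, 218 and 226 CPM in treated WT cells. NS1 libraries had 184, 178 and 194 CPM without inducer and 158, 145 and 166 CPM with it. All 3 treated NS1 libraries lay below the other 9, and the untreated NS1 and WT groups overlapped.

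Between the treated lines HRAS was 1.36-fold lower in NS1 cells (log2 -0.44, SE 0.14, adjusted p 0.0335 by edgeR). The call was lost in 5 of 6 fits that left out 1 library of these groups (treated NS1 replicates 1, 2 and 3, treated WT replicates 2 and 3), with adjusted p up to 0.113. The inducer effect in NS1 cells was -0.24 (95% interval -0.55 to 0.06, adjusted p 0.372). It was called with a block within each line alone (adjusted p 0.0481, where 25.9% of all genes were called). In WT cells it was -0.01 (95% interval -0.31 to 0.30). The untreated lines differed in HRAS by -0.21 (SE 0.14, adjusted p 0.377 by edgeR). Its interaction of genotype and inducer was -0.24 (SE 0.20, adjusted p 0.734), so an inducer effect particular to NS1 cells was not called.

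NRAS was higher in NS1 than in WT cells with and without treatment. NRAS (ENSG00000213281.5) lies on the minus strand of chromosome 1, from 114704469 to 114716771. Replicates 1 to 3 had 87.6, 73.8 and 72.6 CPM in untreated WT cells, 82.7, 69.7 and 63.8 in treated WT cells, 123, 98.3 and 89.4 in untreated NS1 cells, and 120, 93.7 and 89.9 in treated NS1 cells. Every NS1 library lay above every WT library.

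The treated lines differed 1.4-fold (log2 0.49, SE 0.15, adjusted p 0.0284 by edgeR), and the untreated lines 1.33-fold (log2 0.41, SE 0.15, adjusted p 0.0984), which was not called. The latter was called without a low-count filter (0.0423), where 2978 of 34084 genes were called. The former call was lost in 3 of 6 fits that left out 1 library (treated NS1 replicate 1, treated WT replicates 2 and 3; adjusted p up to 0.117) and with library totals in place of TMM scaling (0.0959). The calls of HRAS and NRAS between treated lines were both lost when replicate 2 (adjusted p 0.279 and 0.176) or replicate 3 (0.0611 and 0.119) was left out of all groups. With inducer in NS1 cells NRAS differed by -0.03 log2 (95% interval -0.36 to 0.29, adjusted p 0.942).

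RRAS2 had no call in any comparison with all 12 libraries. RRAS2 (ENSG00000133818.14) lies on the minus strand of chromosome 11, from 14277920 to 14364506. Replicates 1 to 3 had 123, 175 and 182 CPM in untreated WT cells and 119, 174 and 179 in treated WT cells. NS1 libraries had 161, 131 and 133 CPM without inducer and 148, 159 and 154 with it. The 4 groups overlapped. Its inducer effect was 0.12 log2 in NS1 cells (95% interval -0.25 to 0.49, adjusted p 0.775) and -0.03 in WT cells (-0.40 to 0.34). NS1 differed from WT cells by -0.18 without treatment (95% interval -0.54 to 0.19, adjusted p 0.553) and by -0.03 with it (-0.40 to 0.34, adjusted p 0.911). RRAS2P1 followed it with 0.07 in the NS1 inducer comparison and -0.19 between the untreated lines.

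**Figure D2:**
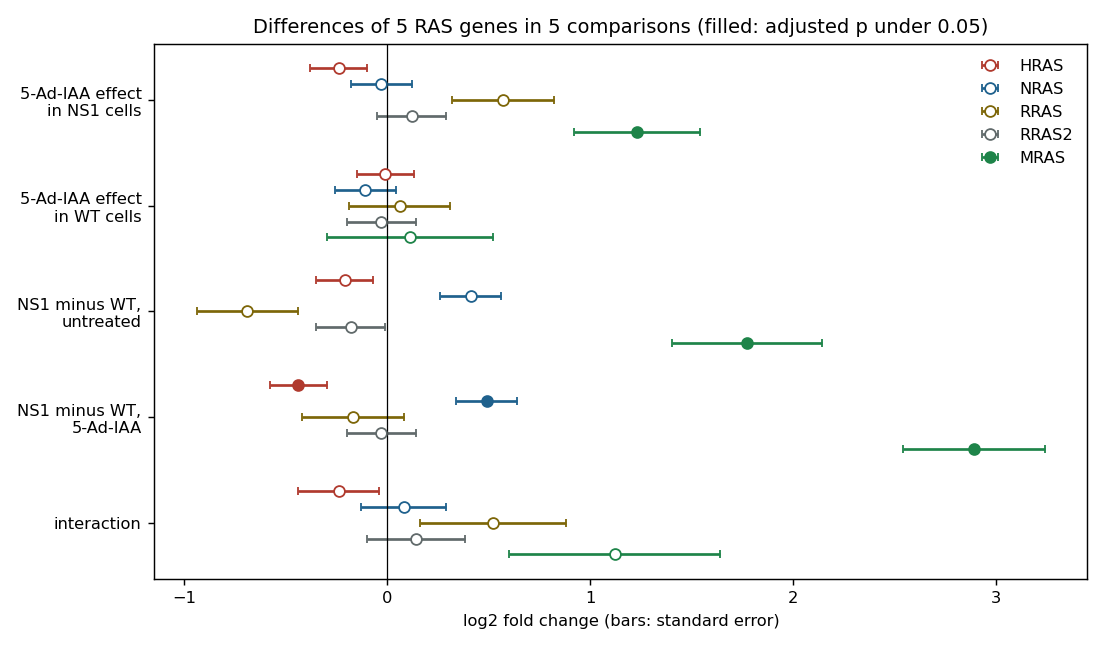
Log2 fold change (x axis) of the 5 genes in each comparison (rows), with bars of 1 standard error and filled points for genes with an adjusted p under 0.05. MRAS is filled in 3 rows, at 1.23, 1.77 and 2.89, HRAS and NRAS are filled in the comparison of treated lines alone, at -0.44 and 0.49, and no gene is filled for WT cells or the interaction.

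Read against all genes, the counts of called members were 1 of 5 for the inducer in NS1 cells (6.15% of all genes), 1 of 5 between untreated lines (12.5%) and 3 of 5 between treated lines (28.2%). For the inducer in WT cells 0 of 5 were called, as were 0% of all genes, and no member had an unadjusted p under 0.05 by edgeR (94 of all genes did) or a call by DESeq2. For the interaction 0 of 5 were called against 0.0225% of all genes, again with no member at an unadjusted p under 0.05. DESeq2 called none of the other 4 and gave MRAS no adjusted p. In WT cells 0 of 5 genes had inducer groups that did not overlap (3.41% of all genes). Groups did not overlap for HRAS and MRAS with inducer in NS1 cells, where this held for 27.2% of all genes. Between untreated lines they did not overlap for NRAS, RRAS and MRAS (31% of all genes), and between treated lines for HRAS, NRAS and MRAS (43.4%). The comparisons share groups: treated NS1 libraries enter both the inducer comparison in NS1 cells and that of treated lines.

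The replicate number moved with several members. NRAS was highest in replicate 1 in 4 of 4 groups and RRAS was lowest there in 4 of 4. RRAS2 was lowest in replicate 1 in 3 groups and highest in untreated NS1 cells, and MRAS was highest in replicate 1 in 3 groups. Within a group RRAS differed up to 1.67-fold between libraries and MRAS up to 2.31-fold. The part of depth or of any other feature of replicate 1 in these values was not tested. Without replicate 1 in all groups RRAS was called with inducer in NS1 cells (adjusted p 0.0483), and NRAS (0.0259), RRAS (0.0212) and RRAS2 (0.0062) were called between the untreated lines. Calls over all genes were also more frequent in that fit, at 2021 and 3466 of 17667 genes in these 2 comparisons. The fit of all libraries called 1093 and 2222 of 17775.

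The ratio of HRAS to NRAS reads within a library does not depend on how libraries are scaled. It was 2.08, 2.52 and 3.77 in replicates 1 to 3 of untreated WT cells and 2.35, 3.13 and 3.55 in treated WT cells. In NS1 cells it was 1.5, 1.81 and 2.17 without treatment and 1.32, 1.55 and 1.84 with it. NS1 was below WT at every replicate number and treatment. NS1 cells had a ratio 1.69-fold lower than WT cells (log2 -0.76). An exact permutation test of line labels within treatment gave a two-sided p of 0.01, where the smallest possible is 0.005. That test takes the 12 libraries as independent, although replicate numbers pair libraries within a line, so its p may be too small. With a pair as the unit, 3 against 3 could not go below 0.1. With inducer the log2 ratio differed by -0.21 in NS1 cells (exact permutation p = 0.5) and by 0.13 in WT cells (exact permutation p = 0.8), where 3 against 3 libraries cannot go below 0.1. In NS1 cells the treated library was lower in 3 of 3 pairs of replicate number, and the exact sign-flip test over these pairs gave p = 0.25, the smallest that 3 pairs allow.

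**Figure D3:**
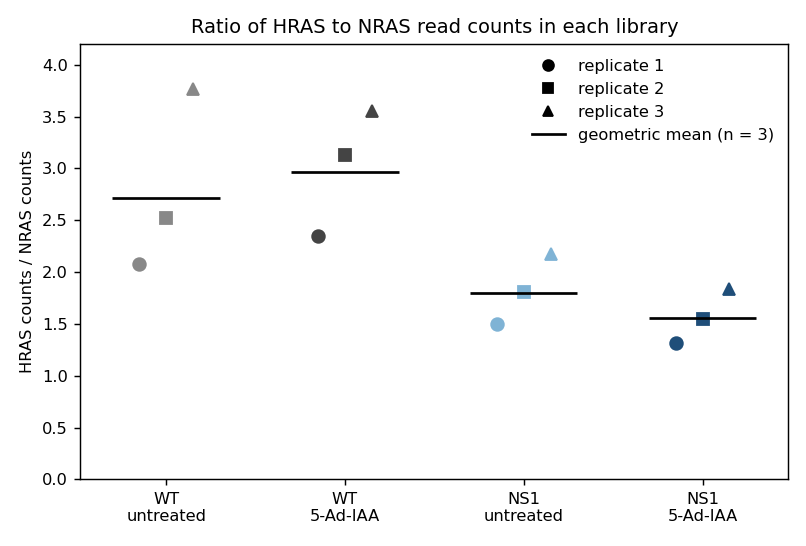
Ratio of HRAS to NRAS read counts (y axis, linear, from 0) in each library, by group on the x axis, with a symbol for each replicate number and a line at the geometric mean. NS1 libraries lie between 1.32 and 2.17 and WT libraries between 2.08 and 3.77, with an overlap between the highest NS1 and the lowest WT library.

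The summed per-length level of the 5 genes was 187 ± 4.21 CPM per kb (SD, n = 3) in the NS1 line without inducer and 186 ± 8.7 with it. In WT cells it was 216 ± 43.1 and 215 ± 24.9. The sum covers these 5 genes only. HRAS made up 53.3% ± 1.69 of it in the NS1 line without inducer and 45.2% ± 1.98 with it, with no overlap (52.2% to 55.3% against 43.1% to 47.1%), and 53.2% ± 2.82 and 53.7% ± 2.27 in the WT groups. The share of RRAS was 12.1% ± 3.23 before and 18% ± 3.89 after treatment of NS1 cells, and that of NRAS 12.4% ± 1.95 and 12.2% ± 2.37. MRAS, despite its fold change, made up 0.278% ± 0.106 and 0.661% ± 0.21 of the sum. These shares are descriptions without a test.

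**Figure D4:**
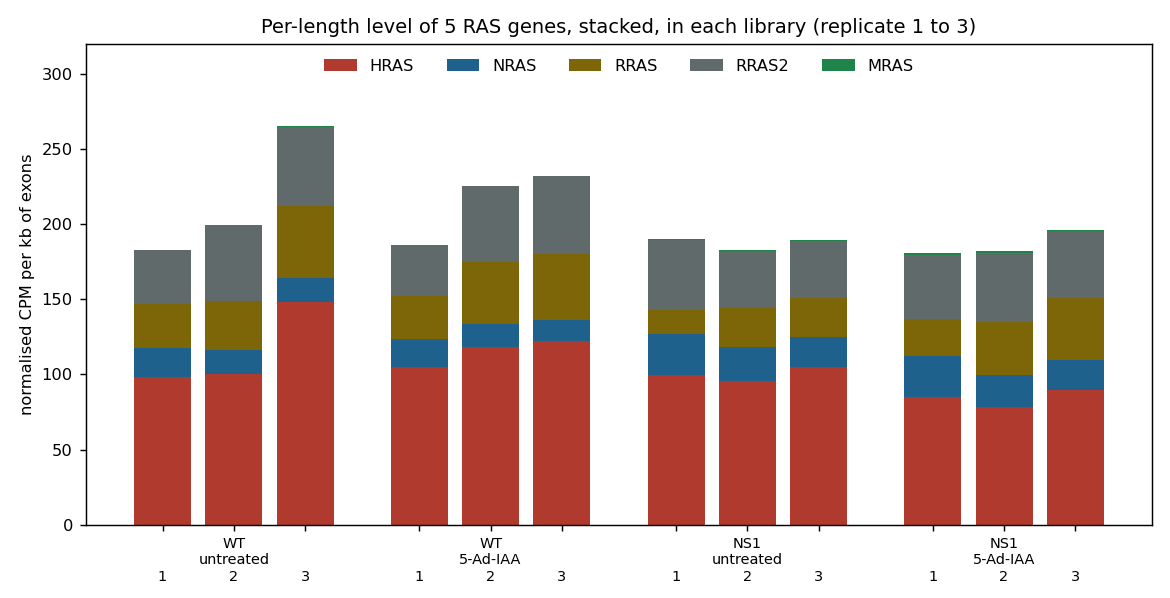
Per-length level in CPM per kb of exon (y axis, from 0), stacked over the 5 genes, for each library, with replicates 1 to 3 side by side in each group. The stacks of the 6 NS1 libraries are of similar height, with the HRAS segment lower in treated libraries (78.4 to 89.5) than in untreated ones (95.9 to 105), and MRAS too thin to see.

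The profile of each gene over the 12 libraries was set against the 9890 or 9891 other named genes with at least 10 CPM, by the root-mean-square difference of centred log2 CPM. Nearest to HRAS were CIB1 (0.0705), ARHGDIA (0.0738) and ATG4D (0.0752), where the median gene was at 0.307. Nearest to NRAS were NUDT3 (0.0669), SOCS5 (0.0672) and VPS26A (0.0761), with a median of 0.352. CAPG (0.0846), SLC2A6 (0.117) and PRDX5 (0.128) were nearest to RRAS, with a median of 0.485. CAPG had 104, 106, 64.8 and 90.4 CPM in untreated WT, treated WT, untreated NS1 and treated NS1 cells, the order that RRAS showed. RRAS2P1 (0.0494), KIF1C (0.0772) and HAGLR (0.0889) were nearest to RRAS2, with a median of 0.304. SEL1L3 (0.332), CADM1 (0.41) and TGFBI (0.444) were nearest to MRAS, with a median of 1.26. These distances were larger than the nearest ones of the other members, but the measure is not scaled to a gene's own spread. The SD of log2 CPM was 1.24 for MRAS, against 0.234 for HRAS, 0.279 for NRAS, 0.428 for RRAS and 0.208 for RRAS2. The larger distances therefore do not show that MRAS lacked genes of like profile. TGFBI had 24.4, 26.7, 116 and 176 CPM in the same order of groups. Between members the nearest pair was HRAS and RRAS2 (0.244) and the farthest RRAS and MRAS (1.47). The distance of 0.244 was no smaller than the SD of HRAS (0.234) or RRAS2 (0.208) alone, so even this pair did not move together closely. These are differences over libraries that share depth and group, given without a test.

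Other genes around RAS were taken from 4 lists: relatives in the RAS subfamily, enzymes and carriers of RAS processing and membrane transport, RAS turnover with the SHOC2 complex, and effectors other than RAF kinases. Of their 80 genes 66 were tested. With inducer in NS1 cells 5 of the 66 (7.58%) were called by edgeR, 2 higher and 3 lower, against 6.15% of all genes, and the median log2 fold change was 0.00 against 0.01 over all genes.

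Among the relatives 1 of 17 tested was called, RASL11A, which encodes a small GTPase of the RAS-like group. RASL11A had 2.04, 2.47 and 1.92 CPM in untreated and 16, 4.54 and 9.3 CPM in treated NS1 libraries (log2 2.23, SE 0.39, adjusted p 0.00693), all treated libraries lying higher. Its call was kept in 6 of 6 fits that left out 1 NS1 library. It was lost, as every call of this comparison was, when replicate 2 or replicate 3 was left out of all groups.

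Among processing and transport genes 1 of 15 was called, ICMT, the methyltransferase that acts on the prenylated end of RAS proteins. ICMT fell from 186 ± 21.4 to 139 ± 8.49 CPM (log2 -0.41, SE 0.10, adjusted p 0.0296), and its call was lost in 5 of 6 fits that left out 1 NS1 library, all but the fit without treated replicate 1. In the turnover list 2 of 13 were called. SCRIB, which encodes a polarity scaffold that joins MRAS and SHOC2, fell from 147 ± 8.32 to 105 ± 0.365 CPM (log2 -0.49, SE 0.10, adjusted p 0.0115) and was lost in 1 of the 6 fits, without treated replicate 3 (0.0543). WDR76, an adaptor reported to direct RAS to degradation, fell from 38.4 ± 3.8 to 24.9 ± 5.82 CPM (log2 -0.63, SE 0.16, adjusted p 0.0369) and was lost in 5 of 6, all but the fit without treated replicate 2. Of the effectors 1 of 21 was called: RGL3, an exchange factor for RAL, rose from 2.52 ± 0.206 to 4.24 ± 0.705 CPM (log2 0.74, SE 0.20, adjusted p 0.0441), and was lost in all 6 such fits. RGL3 also went from 1.84 ± 0.304 to 2.47 ± 0.277 CPM with inducer in WT cells (log2 0.43, SE 0.21), which was not called. Its interaction was 0.32 (SE 0.29, adjusted p 0.761 by edgeR).

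**Figure D5:**
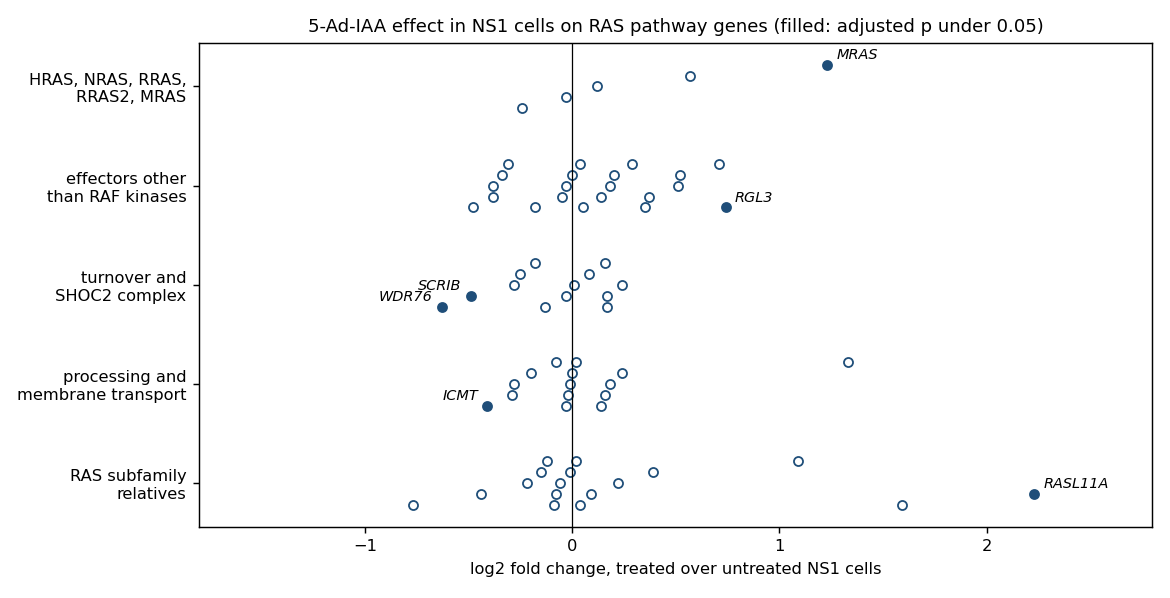
Log2 fold change of treated over untreated NS1 cells (x axis) for each tested gene of the 4 lists and for the 5 RAS genes (rows), with filled, named points for an adjusted p under 0.05; height within a row only separates points. RASL11A (2.23) and MRAS (1.23) are the highest named points, and most genes lie near 0 without a call.

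In WT cells 0 of 66 list genes were called by edgeR, with 1 at an unadjusted p under 0.05 and 0 called by DESeq2. For the interaction 0 of 66 were called, with 7 at an unadjusted p under 0.05 and 1 called by DESeq2. Between untreated lines 8 of 66 (12.1%) were called, 1 higher and 7 lower in NS1 cells, against 12.5% of all genes. The largest were GRB7, an adaptor (log2 -1.66, SE 0.41, adjusted p 0.0187), RASIP1, an endothelial RAS-binding protein (-1.46, SE 0.38, adjusted p 0.0255), and RASSF2, a RAS association domain protein (-1.37, SE 0.25, adjusted p 0.0042). RASSF2 kept its call in 6 of 6 fits that left out 1 library of these groups. GRB7 lost it in 3 (untreated WT replicate 1, untreated NS1 replicates 1 and 3) and RASIP1 in 5, all but the fit without untreated WT replicate 1. RASIP1 had 0.984, 1.28 and 1.55 CPM in untreated WT libraries. In untreated NS1 libraries it had 0.432, 0.509 and 0.385 CPM from 4 to 7 reads, all under the filter's cutoff of 0.761 CPM. It thus entered the test through WT libraries, the line in which it is high.

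Between treated lines 28 of 66 (42.4%) were called, 15 higher and 13 lower in NS1 cells, against 28.2% of all genes. RASL11A was higher by 3.18 log2 (SE 0.42, adjusted p 0.000161). PRKG2, a cGMP-dependent kinase, was higher by 2.56 (SE 0.51, adjusted p 0.00268). Its size moved to 1.58 without treated NS1 replicate 1, where PRKG2 had 7.69 CPM against 2.09 and 2.08 in replicates 2 and 3. WT libraries had 0.937, 0.676 and 0.58 CPM of PRKG2 untreated and 0.807, 0.742 and 0.45 treated, around the filter's cutoff of 0.761 CPM. PRKG2 thus passed the filter through NS1 libraries, the line in which it is high. RASD2, a RAS-like GTPase of striatal neurons, had 1 to 3 reads in treated WT libraries, which are 0.095, 0.223 and 0.0901 CPM there, against 0.728, 1.83 and 1.83 CPM from 14 to 22 reads in treated NS1 libraries (adjusted p 0.012). RASD2 was above the filter's cutoff of 0.761 CPM in NS1 libraries alone, so it entered the test through the line in which it is high. It lost its call without treated WT replicate 1 (adjusted p 0.0506). Of the complex that MRAS joins, SHOC2 differed by 0.53 log2 (adjusted p 0.01), the phosphatase subunit PPP1CB by 0.63 (0.00638) and PPP1CA by -0.45 (0.0156) in treated NS1 against treated WT cells. The third catalytic subunit, PPP1CC, was not called (-0.18, adjusted p 0.188). None of these was called with inducer in NS1 cells: SHOC2 0.24, PPP1CB 0.08, PPP1CA -0.03 and PPP1CC -0.25 (adjusted p 0.343, 0.817, 0.94 and 0.156 by edgeR). The untreated lines differed, without a call, by 0.22, 0.44, -0.36 and 0.01 in the same order (adjusted p 0.307, 0.0671, 0.0729 and 0.964). These 4 genes were named after their values were seen.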

How the data were processed

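Poly(A) RNA of T24 cells was sequenced in 12 libraries. The deposited table holds raw read counts per gene, which the authors made with STAR 2.7.3a, featureCounts 1.6.4 and the hg38 genome, per the submitters' processing notes. The gene annotation and the strand setting are not given in the sources used here. Library totals ran from 10593934 to 20266996 counts, which limits the precision for MRAS most.

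Counts were scaled by TMM and tested with edgeR 4.0.16 (quasi-likelihood, R 4.3.3) on the 17775 genes that passed filterByExpr, with 1 mean for each of the 4 groups. The fit was tested on simulated data. DESeq2 1.42.0 served as an alternative. Other scalings, filters, blocks and left-out libraries were also tried. Reading 5 comparisons, the text names the 5 RAS genes, each list gene called with inducer in NS1 cells, the 3 called list genes with the largest change between lines, and the 3 genes closest to each RAS gene in profile. The RAS genes and the lists were chosen with earlier results of these data known.

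Deviations from group means of libraries with the same replicate number correlated across genes at 0.71, 0.39 and 0.38 between the NS1 groups and at 0.75, 0.38 and 0.26 between the WT groups, so the numbers pair libraries within a line. Transcripts compared for shared windows are from GENCODE release 29. Some items are not reported here. Per-length levels divide CPM by the union of exons.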

Additional observations from a re-analysis of the deposited data

How the results depend on the processing

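With inducer in NS1 cells 1093 genes were called, 1801 without a low-count filter, 2421 with a replicate block and 4596 with a replicate block within each line. RAS genes called there numbered 2, 2 and 3 in those fits, and 0 with only the groups compared, where 991 genes were called. With at least 10 counts in every library MRAS was not tested. Of the other 4 RAS genes 0 were then called, against 1084 of 15462 genes. Leaving out libraries gave 0 to 2021 genes and 0 to 2 RAS genes, and NRAS from -0.17 to 0.11 log2. In WT cells HRAS turned to 0.01 with the replicate block and 0.02 within each line, and left-out libraries gave HRAS -0.11 to 0.21, RRAS -0.10 to 0.30, RRAS2 -0.19 to 0.14 and MRAS -0.19 to 0.42.

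Between untreated lines 2222 genes were called, and 3908 with the replicate block. RAS genes called were 3 without a filter (2978 of 34084 genes), 3 with the block (MRAS, NRAS at an adjusted p of 0.00259 and RRAS at 0.00172, edgeR) and 2 by DESeq2 (2454 genes). At 10 counts or more in every library MRAS was not tested, and 0 of the other 4 were called, against 1967 of 15462 genes. Left-out libraries gave 182 to 3466 genes, 0 to 4 RAS genes and HRAS from -0.31 to 0.01. Between treated lines they gave 1632 to 6007 genes, 1 to 3 RAS genes, RRAS from -0.35 to 0.02 and RRAS2 from -0.20 to 0.07. Between lines the deviations of same-numbered libraries correlated weakly across all genes, at 0.006 to 0.19. For single genes the number could still matter in both lines: NRAS was highest and RRAS lowest in replicate 1 in 4 of 4 groups.

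For the interaction 4 genes were called, 7 with RLE size factors, 683 without a filter, 33 with at least 10 counts, 634 with the replicate block, 2495 within each line (2 of them RAS genes) and 377 by DESeq2. Left-out libraries gave 0 to 573 genes, NRAS from -0.06 to 0.22 and RRAS2 from -0.03 to 0.30. The log2 ratio of HRAS to NRAS between lines ran from -0.85 to -0.64, and in NS1 cells with inducer from -0.35 to -0.08. Without a replicate number in all groups the exact permutation p between lines was 0.0556 to 0.111, and 0.0556 is the smallest possible there. These fits too take the libraries of a line as independent. The ratio of NRAS to RRAS per length in untreated NS1 cells was 0.924 with the length of the longest coding transcript, a choice made after seeing the data. The cause of these shifts was not tested.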
